A study of Mus musculus with 3 samples.

Results

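The genes described here are 7 genes of caspase and death receptor signalling: Fas, Fadd, Cflar, Casp8, Casp9, Casp2 and Apaf1. They were chosen by gene name from the 37646 genes listed in each count table, and each name matched 1 gene. Their RNA was measured by polyA sequencing in 3 libraries of lymphoma B cells sorted as B220+GFP+ from mouse spleen, named tumours 1, 2 and 3. All 3 form 1 group of C57BL/6 mice called pBIC2. Every lymphoma carries p53F/F and Blimp1F/F, the floxed alleles of Trp53 and Prdm1, and IKK2castopF/stopF, which after removal of a stop cassette makes a constitutively active IKK2 kinase that drives NF-κB signalling. Cg1Cre/+ supplies Cre from the Cγ1 locus, which is transcribed in activated B cells, and Eµ-hBCL2tg/+ adds a human BCL2 transgene under the Eµ enhancer. The labels class the model as ABC-DLBCL, a large B cell lymphoma named for its likeness to activated B cells. Age was not given in the sources used here, and nothing says that the libraries came from separate mice. Germinal centre B cells, the control population the labels name, were not analysed here, so the values are levels and their spread between lymphomas, with no test. Dead cells were removed at the sort by 7AAD, a dye that enters dying cells, and the libraries therefore show RNA of cells alive at that step.

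Apoptosis is started along routes that meet at the executioner caspases. In the extrinsic route, ligand-bound Fas recruits the adaptor FADD, which gathers procaspase-8. c-FLIP, the product of Cflar, resembles caspase-8 without its protease activity and enters the same complex. In the intrinsic route, cytochrome c released from mitochondria assembles Apaf-1 into the apoptosome, which activates caspase-9, and BCL2 acts upstream by holding the mitochondrial outer membrane closed. Caspase-2 is activated on a separate platform, the PIDDosome. Germinal centre B cells are known for high surface Fas, Cflar is known as an NF-κB target, and Fas, Apaf1 and Pidd1 are known p53 targets.

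The totals were 15576975, 16477997 and 17014022 gene counts in tumours 1, 2 and 3. Levels are CPM, read counts divided by library size after TMM scaling (a factor that aligns the bulk of genes between libraries), and 3 counts correspond to 0.199, 0.184 and 0.169 CPM. Trp53, whose counts cannot separate deleted from remaining exons, was at 23.1, 44.3 and 35.1 CPM. The B cell label held in every library. All 10 pan B cell markers had counts in each, with a median of 853, 1247 and 1065 CPM. Of these 10, 4 had a range of 2-fold or more (Ms4a1, Cd79b, Ptprc and Fcrla, 2.83-fold to 3.66-fold), against 34.9% of the genes that passed a filter on low counts. All 4 were lowest in tumour 1, as Fas was, against 34.3% of those genes. T cell markers were uneven, with a sum over 12 genes of 198, 312 and 1424 CPM. Of the 12, 10 were highest in tumour 3, against 33.4% of the genes that passed the filter, though only 7 of the 12 passed it. In bulk RNA, fewer cells of a type and less RNA per cell cannot be told apart.

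Promoter sequences are shown for 3 of the genes, because Fas varied most between the lymphomas, Casp8 had the highest level per kilobase and Apaf1 the highest CPM. Each runs 5′ to 3′ on the strand of the gene from 250 bases before to 50 bases after its RefSeq start (build GRCm38.p6), with CG dinucleotides in capitals. The Fas promoter lies at chr19:34290409-34290708 (plus strand), that of Casp8 at chr1:58802252-58802551 (plus strand) and that of Apaf1 at chr10:91082694-91082993 (minus strand). GENCODE begins the Casp8 gene upstream of the RefSeq start used here.
Fas: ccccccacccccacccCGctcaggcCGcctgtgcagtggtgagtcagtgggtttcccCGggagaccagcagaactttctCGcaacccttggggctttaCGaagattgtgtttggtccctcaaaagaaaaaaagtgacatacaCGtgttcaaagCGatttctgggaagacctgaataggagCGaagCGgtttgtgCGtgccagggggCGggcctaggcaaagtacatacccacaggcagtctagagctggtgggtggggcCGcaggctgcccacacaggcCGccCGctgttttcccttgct
Casp8: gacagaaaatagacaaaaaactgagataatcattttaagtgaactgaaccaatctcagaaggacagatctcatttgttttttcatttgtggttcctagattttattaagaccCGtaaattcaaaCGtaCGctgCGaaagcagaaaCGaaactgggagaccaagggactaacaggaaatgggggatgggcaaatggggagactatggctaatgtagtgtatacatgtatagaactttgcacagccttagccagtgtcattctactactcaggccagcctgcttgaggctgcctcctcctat
Apaf1: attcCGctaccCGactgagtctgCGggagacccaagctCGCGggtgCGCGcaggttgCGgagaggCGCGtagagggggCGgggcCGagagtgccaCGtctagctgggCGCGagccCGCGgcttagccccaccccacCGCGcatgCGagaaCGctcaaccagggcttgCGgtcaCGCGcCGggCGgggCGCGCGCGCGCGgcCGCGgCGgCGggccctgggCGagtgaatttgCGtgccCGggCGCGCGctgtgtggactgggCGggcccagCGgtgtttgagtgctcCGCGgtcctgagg
The sequences differ in CG content. Fas has 14 CG dinucleotides in its 300 bases, Casp8 5 and Apaf1 46, and the median over 32851 RefSeq promoters was 7. Fadd has 22, Casp2 26, Casp9 28 and Cflar 12. Neither the κB consensus, found in 4.51% of the promoters, nor the p53 half-site, found in 8.36%, matched in any of the 7 windows on either strand. The GC box core GGGCGG, searched on both strands, matched in 5 of the 7 promoters (Fas, Fadd, Casp9, Casp2 and Apaf1) and in 35.7% of all promoters. TATAAA, also searched on both strands, matched in that of Cflar alone and in 13.6% of all. A match or its absence in these windows describes the letters only.

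Fas was nearly absent from one lymphoma and present in another, while the other 6 genes kept within 2-fold. Of the 7 genes, 1 (Fas) had a highest level at least 2 times its lowest, against 34.9% of the 11273 genes that passed a filter on low counts. Fas itself did not pass that filter, since it asks for counts in every library and tumour 1 had 2; the other 6 genes passed. Among the 12445 genes with a mean of at least 1 CPM, which hold all 7, the share with such a range was 42.0%. The median ratio of highest to lowest was 1.72 for the 7 genes and 1.80 for those 12445. At a limit of 1.5-fold, 6 of the 7 genes were past it, against 64.3% of the genes that passed the filter, and at 3-fold 1 was, against 15.2%. Over all 25463 genes with a count, 67.2% had a 2-fold range. Counting error was small beside most differences: in 20 of 21 comparisons of 2 lymphomas for 1 gene, the exact 95% interval of the ratio excluded 1. The same share was not computed for other genes, so this count does not set the 7 genes apart. These intervals cover counting error only and say nothing of the spread between further lymphomas, since each tumour has 1 library.

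**Figure D1:**
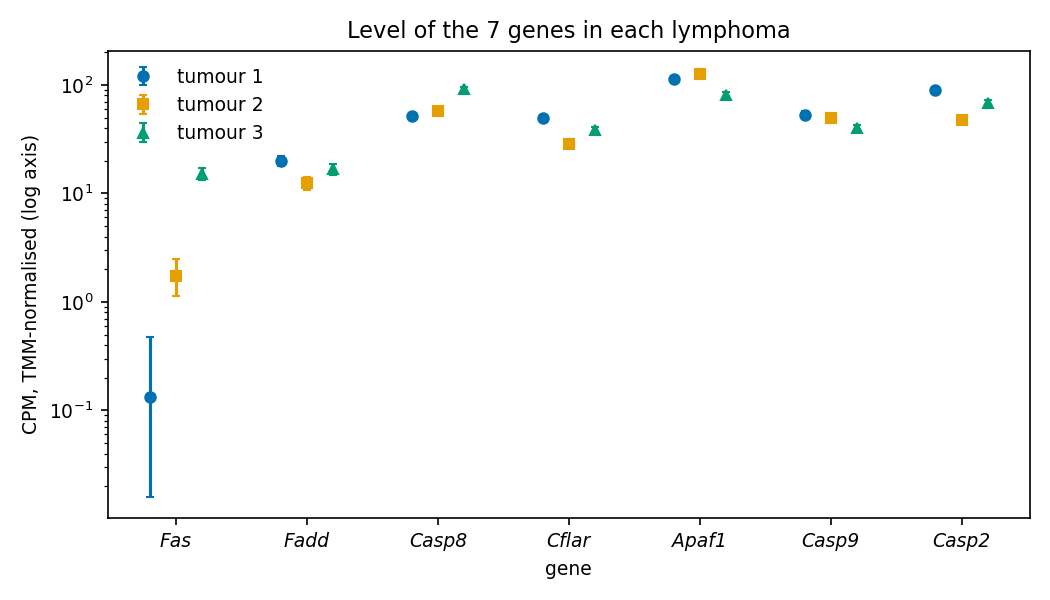
Level of the 7 genes in each lymphoma, in TMM-normalised CPM on a log axis, with exact 95% Poisson intervals for counting error. Fas runs from 0.133 to 15.2 CPM, and each of the other 6 genes stays within a 2-fold range.

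Fas encodes the death receptor CD95 (ENSMUSG00000024778.13; mm10 chromosome 19, 34290666 to 34327772). It had 2 counts in tumour 1, 28 in tumour 2 and 269 in tumour 3, which are 0.133, 1.72 and 15.2 CPM. Tumour 3 stood above both others, and tumour 2 above tumour 1. The ratio of tumour 3 to tumour 1 was 114 (95% interval 31.4 to 949), that of tumour 3 to tumour 2 was 8.83 (5.97 to 13.5), and that of tumour 2 to tumour 1 was 12.9 (3.27 to 112). Of the 12445 genes with a mean of at least 1 CPM, 4.19% had a ratio of highest to lowest at or above that of Fas. The mean of 5.67 ± 8.26 CPM (SD, n = 3) rested on tumour 3, without which it was 0.925 CPM.

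Of 12 T cell markers, 9 ranked the lymphomas as Fas did, and germinal centre markers went several ways. T cells can express Fas, and the T cell marker Cd3e had 0, 23 and 1023 counts, Cd8a 10, 74 and 4222, and Thy1 13, 54 and 3351. From tumour 2 to tumour 3, Cd3e was 40.9-fold, Cd8a 52.5-fold and Thy1 57.1-fold higher, against 8.83-fold for Fas, and 7 of 12 T cell markers had a larger ratio than Fas. Cd4, Cd5, Cd2, Cd3g and Lck had smaller ratios, of which Cd4 (0.155) and Cd5 (0.472) were lower in tumour 3. NK cell markers summed to 1.86, 2.45 and 48.3 CPM. In tumour 3, Prf1 gave 39.96 and Gzma 7.33 CPM of that sum. Klrb1c went the other way, with 26, 1 and 0 counts. Klrd1 had 2, 7 and 10 counts, Klre1 0, 2 and 8, and Ncr1 had no count in any library. Neutrophil markers summed to 0.199, 17.04 and 42.9 CPM. The part of such cells, if present, in the level of Fas was not tested. Among 8 germinal centre markers, a list that holds Fas, Bcl6 (0.464, 2.64 and 14.5 CPM) and S1pr2 (1.66, 1.35 and 6.37 CPM) were also highest in tumour 3. S1pr2 was lowest in tumour 2, Rgs13 and Basp1 were highest there, Mef2b was highest in tumour 1, and Gcsam had no count.

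**Figure D2:**
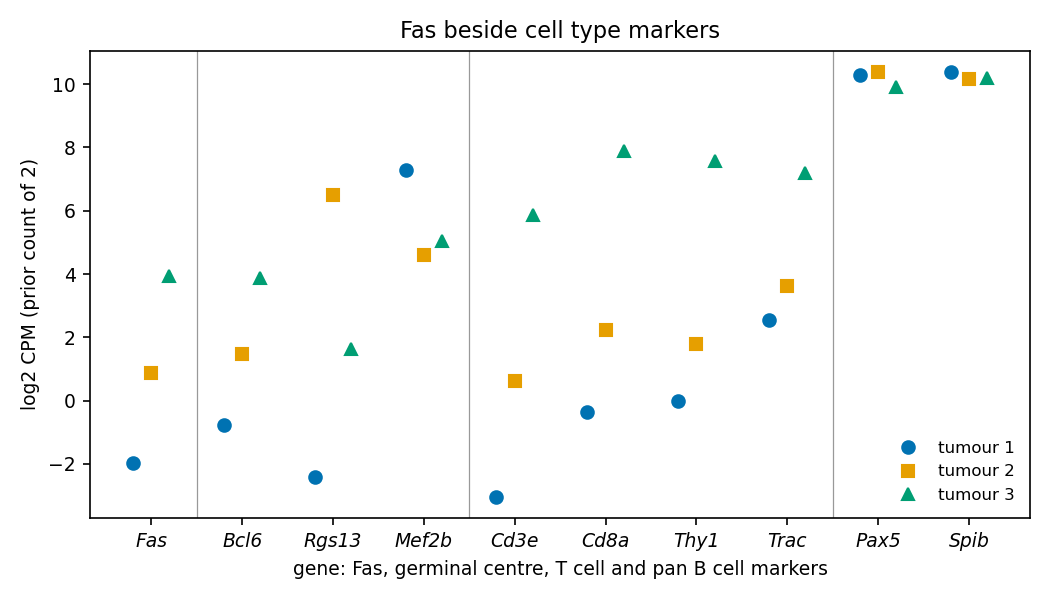
Log2 CPM (prior count of 2) of Fas, 3 further germinal centre, 4 T cell and 2 pan B cell markers in each lymphoma. Fas, Bcl6 and the 4 T cell markers drawn rank tumour 1 lowest and tumour 3 highest, an order that Cd4, Cd5 and Lck of the same list do not share. The pan B cell markers drawn, Pax5 and Spib, are among the 6 of 10 with less than a 2-fold range.

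The genes whose pattern over the 3 lymphomas lay nearest to that of Fas, by Euclidean distance of centred log2 CPM among 8429 protein-coding genes with a mean of at least 10 CPM, were Gabbr1 (distance 0.16), Tes (0.29), Lcp2 (0.34), Emb (0.40) and Smpdl3b (0.44). Gabbr1, for example, had 7, 59 and 541 counts. A likeness over 3 libraries is a description only. The median of the 16 expressed neighbours of Fas within 2 Mb on chromosome 19 was -0.21, 0.28 and -0.045 on the centred log2 scale, where Fas was at -2.92, -0.068 and 2.99.

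Fadd, the adaptor that links Fas to caspase-8, was fairly even (ENSMUSG00000031077.7; chromosome 7, 144577318 to 144582463). Its level was 19.9, 12.4 and 16.7 CPM in tumours 1, 2 and 3, with a mean of 16.4 ± 3.77 CPM (SD, n = 3). Tumour 1 was highest and tumour 2 lowest, with a ratio of 1.603 (1.34 to 1.92). Faddos, an antisense gene that overlaps Fadd, had at most 4 counts.

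Casp8, the initiator caspase of the death receptor complex, was highest in tumour 3 (ENSMUSG00000026029.14; chromosome 1, 58795374 to 58847503). It stood at 51.9, 57.3 and 90.9 CPM, with a mean of 66.7 ± 21.1 CPM (SD, n = 3). Tumours 1 and 2 lay close together, and tumour 3 exceeded them 1.75-fold (1.61 to 1.91) and 1.59-fold (1.46 to 1.72). T cell markers were also highest in tumour 3, as given above, and their part in this level was not tested. Gm37760, which overlaps Casp8, had at most 28 counts.

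Cflar, the gene of the inhibitor c-FLIP, had another order (ENSMUSG00000026031.15; chromosome 1, 58711508 to 58758884). Its level was 49.4, 28.8 and 38.2 CPM, with a mean of 38.8 ± 10.4 CPM (SD, n = 3). Tumour 1 exceeded tumour 2 by 1.72-fold (1.53 to 1.93). A count over the whole gene cannot separate its long and short isoforms. Cflar ends 36489 bases before Casp8 starts on the same strand, yet tumour 1 was highest for Cflar and lowest for Casp8. The median of 30 expressed neighbours within 2 Mb of Cflar was -0.070, -0.080 and 0.13 on the centred log2 scale, where Cflar was at 0.38, -0.40 and 0.013 and Casp8 at -0.32, -0.17 and 0.49.

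The ratio of inhibitor to initiator RNA differed between the lymphomas. Per kilobase of exon, the ratio of Cflar to Casp8 was 0.218 in tumour 1, with an exact 95% interval of 0.197 to 0.241. It was 0.115 (0.102 to 0.128) in tumour 2 and 0.0960 (0.0877 to 0.105) in tumour 3. Tumour 1 stood above both others by more than counting error, and the mean was 0.143 ± 0.0654 (SD, n = 3). This ratio does not depend on the scaling of the libraries, but it does on the lengths used: with the longest transcript of each gene in place of all its exons, the mean was 0.246. The ratio of Fadd to Casp8 per kilobase followed the same order, at 0.285, 0.161 and 0.137. It shares its denominator with the ratio of Cflar to Casp8, so the 2 are not independent.

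Apaf1, the scaffold of the apoptosome, had the highest mean CPM of the 7 genes (ENSMUSG00000019979.12; chromosome 10, 90989311 to 91082770). It stood at 113, 126 and 81.4 CPM, with a mean of 107 ± 22.9 CPM (SD, n = 3). Tumour 3 was lowest, and tumour 2 exceeded it 1.55-fold (1.45 to 1.66). The median of its 10 expressed neighbours was 0.28, -0.025 and -0.26 on the centred log2 scale, where Apaf1 was at 0.10, 0.26 and -0.37. Both were lowest in tumour 3, but the neighbours were highest in tumour 1 and Apaf1 in tumour 2. The part of the region in this level was not tested.

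Casp9, the caspase that the apoptosome activates, was the most even of the 7 (ENSMUSG00000028914.13; chromosome 4, 141793612 to 141815976). Its level was 53.3, 49.4 and 40.1 CPM, with a mean of 47.6 ± 6.79 CPM (SD, n = 3). The highest exceeded the lowest 1.33-fold (1.20 to 1.47), and the ratio of tumour 2 to tumour 1, 0.927, had the only interval among the 21 that held 1 (0.840 to 1.02). The median of the 25 expressed neighbours of Casp9 was 0.10, 0.22 and -0.28 (centred log2), where Casp9 was at 0.17, 0.064 and -0.24. Both were lowest in tumour 3, but the neighbours were highest in tumour 2 and Casp9 in tumour 1. The part of the neighbours in the level of Casp9 was not tested. Per kilobase, the ratio of Casp9 to Apaf1 was 0.821 (0.754 to 0.893), 0.681 (0.627 to 0.740) and 0.855 (0.780 to 0.936), with a mean of 0.786 ± 0.0920 (SD, n = 3). Tumour 2 was lowest, with an interval below those of the other two.

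Casp2, the caspase of the PIDDosome, had the widest range after Fas (ENSMUSG00000029863.13; chromosome 6, 42264985 to 42282508). It was at 89.1, 47.1 and 68.3 CPM, with a mean of 68.2 ± 21.0 CPM (SD, n = 3), and tumour 1 exceeded tumour 2 by 1.89-fold (1.73 to 2.07). The median of its 5 expressed neighbours was -0.043, -0.010 and 0.36 on the centred log2 scale, where Casp2 was at 0.43, -0.48 and 0.050. Fadd, Cflar and Casp2 were all highest in tumour 1 and lowest in tumour 2. Of the 6 genes that passed the filter, 3 were lowest in tumour 2, against 30.6% of the 11273 genes tested, and 4 were highest in tumour 1, against 35.8%.

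**Figure D3:**
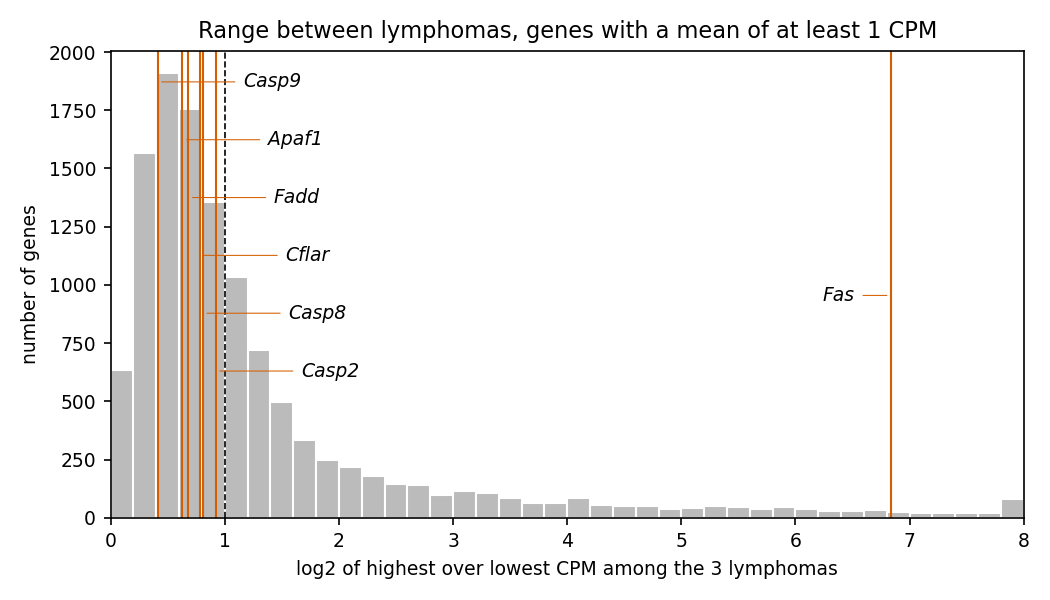
Distribution of the log2 ratio of highest to lowest CPM among the 3 lymphomas for genes with a mean of at least 1 CPM, with the 7 genes as vertical lines and 2-fold as a dashed line. The last bar also holds 69 genes past the axis, and 338 genes with no count in a library are not drawn; 6 of the 7 genes lie left of the dashed line and Fas lies far to its right.

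Levels of different genes can be compared only per length, here as CPM per kilobase of all annotated exons. Casp8 led at 23.0 ± 7.30 CPM per kb (SD, n = 3) and was above Apaf1 (11.8 ± 2.53) in every lymphoma, with no overlap of their ranges. Apaf1, Casp2 (9.66 ± 2.98) and Casp9 (9.16 ± 1.31) had overlapping ranges and did not keep 1 order across the lymphomas. Casp9 exceeded Fadd (4.20 ± 0.965) in 3 of 3 lymphomas, again with no overlap. Fadd exceeded Cflar (3.06 ± 0.818) in 3 of 3, by 1.13 ± 0.188 CPM per kb, although their ranges overlapped. Fas (2.75 ± 4.005) was below Cflar in 2 of 3 lymphomas and above it in tumour 3, at 7.35 against 3.02 CPM per kb. Casp8 lay above 90.4% and Fas above 64.7% of the genes with a count by mean level per kilobase. With the length of the longest transcript, Casp2 moved above Apaf1 and Cflar above Fadd.

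**Figure D4:**
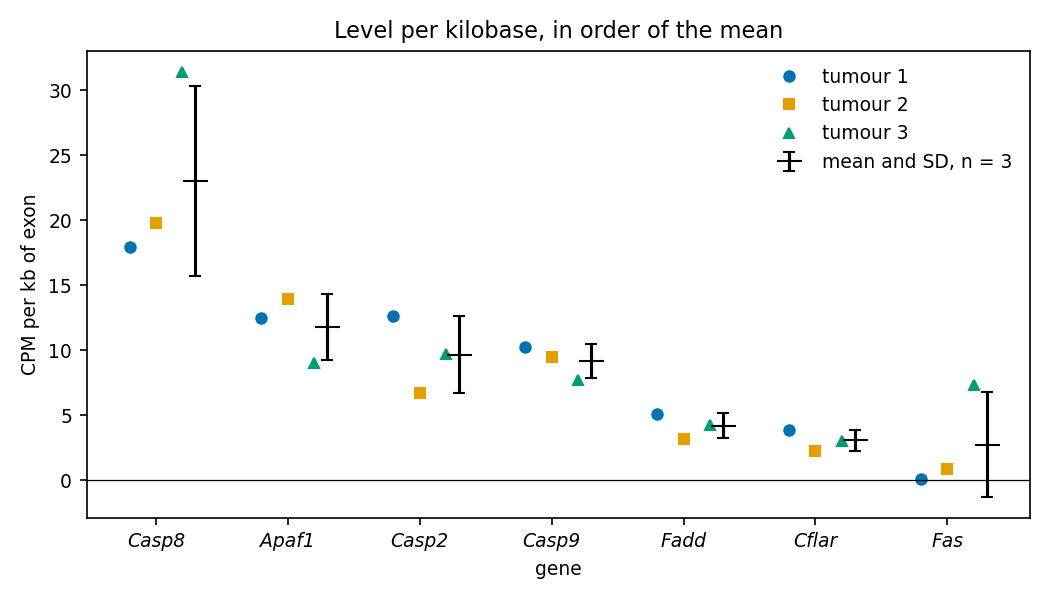
Level of the 7 genes per kilobase of exon in each lymphoma, in order of the mean, with the mean and SD (n = 3) beside the points. Casp8 is above the other 6 genes in every lymphoma, and Fas spans 0.0643 to 7.35 CPM per kb.

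Other genes of these routes were taken from lists of receptors, ligands, adaptors, apoptosome and PIDDosome genes, executioners and related death pathways. Of 51 such genes besides the 7, 41 passed the filter and 15 of these (36.6%) had a range of 2-fold or more, a share near the 34.9% of all genes tested. Casp14 was not analysed here.

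Of 9 death receptors, 7 had a mean of at least 1 CPM and 5 of these had a 2-fold range, against 42.0% of all such genes. Of the 3 that passed the filter on low counts, 1 had such a range, against 34.9%. Tnfrsf25, the receptor DR3, had 204, 2 and 67 counts. Tnfrsf21, the receptor DR6, had 0, 39 and 50 counts. Tnfrsf1a, the receptor TNFR1, named after its values were seen, had 4, 14 and 173 counts and ranked the lymphomas as Fas did. Tnfrsf22, a decoy receptor for TRAIL in mice, was at 2.79 CPM per kb on average and varied 1.71-fold.

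All 5 death ligands had a mean of at least 1 CPM and a 2-fold range, against the same 42.0%, and 4 passed the filter, all of them with a 2-fold range, against 34.9%. Fasl, the ligand of Fas, had 60, 33 and 118 counts, or 3.98, 2.02 and 6.65 CPM. It was highest in tumour 3, where Fas and the T cell markers were highest as well, and the part of T cells, which can make Fas ligand, was not tested. Tnf was at 55.5, 300.1 and 57.04 CPM and Lta, the gene of lymphotoxin-α, at 101, 274 and 82.4 CPM, both highest in tumour 2. Macrophages are another source of TNF, and 8 of 9 macrophage and monocyte markers were highest in tumour 2 as well, among them all 4 that passed the filter, against 30.8% of genes tested. The 9 summed to 35.8, 403 and 179 CPM, of which Cd68, which is not restricted to macrophages, gave 24.8, 325 and 162 CPM. Without Cd68 the sum was 11.0, 78.2 and 17.3 CPM, with at most 3 counts of Cd14. Their part in these levels was not tested. Tnfsf10, the gene of TRAIL, was at 1.92, 17.4 and 11.05 CPM. Tnfsf15, the ligand of DR3, was at 44.3, 73.6 and 0.451 CPM, where Tnfrsf25 was at 13.5, 0.123 and 3.78 CPM. Tumour 2 had the most Tnfsf15 and the least Tnfrsf25, but tumour 1, with the most Tnfrsf25, did not have the least Tnfsf15.

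Of 11 genes of the receptor complex and its modulators, Fadd, Cflar and Casp8 included, 10 passed the filter and 1 of these had a 2-fold range, against 34.9% of all genes tested. That gene was Fcmr, the IgM Fc receptor once named for an inhibition of Fas, at 1605, 82.1 and 547 CPM. Bid, which caspase-8 cleaves to link the extrinsic to the intrinsic route, was at 129, 71.4 and 104 CPM. Faim, a Fas inhibitory molecule, was at 35.9, 46.3 and 24.1 CPM.

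All 8 genes of the apoptosome list passed the filter and 2 had a 2-fold range, against the same 34.9%. Htra2, a mitochondrial protease that antagonises inhibitors of apoptosis, was at 58.6, 45.4 and 35.8 CPM, and Diablo, which acts on the same inhibitors, at 21.01, 11.5 and 8.85 CPM. Apip, an Apaf-1 interacting protein, was at 14.1, 20.7 and 6.65 CPM. Including Apaf1 and Casp9, 6 of the 8 were lowest in tumour 3, against 35.2% of all genes tested. In the PIDDosome, Pidd1, the platform protein, was at 88.9, 59.5 and 49.1 CPM and Cradd, the adaptor to caspase-2, at 15.0, 12.1 and 7.50 CPM. Casp2 shared with both of them the highest level in tumour 1, but both were lowest in tumour 3 and Casp2 in tumour 2.

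Downstream of the initiators, all 10 executioner and substrate genes passed the filter and 5 had a 2-fold range, against 34.9% of all genes tested. Casp6, an executioner caspase named after its values were seen, was at 13.1, 24.7 and 32.5 CPM, lowest in tumour 1 like Casp8. Lmnb1, a nuclear lamin, was at 516, 156 and 271 CPM, Parp1, a caspase substrate of DNA repair, at 345, 264 and 234 CPM, and Gsdme, a gasdermin cleaved during apoptosis, at 11.2, 4.29 and 7.38 CPM.

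**Figure D5:**
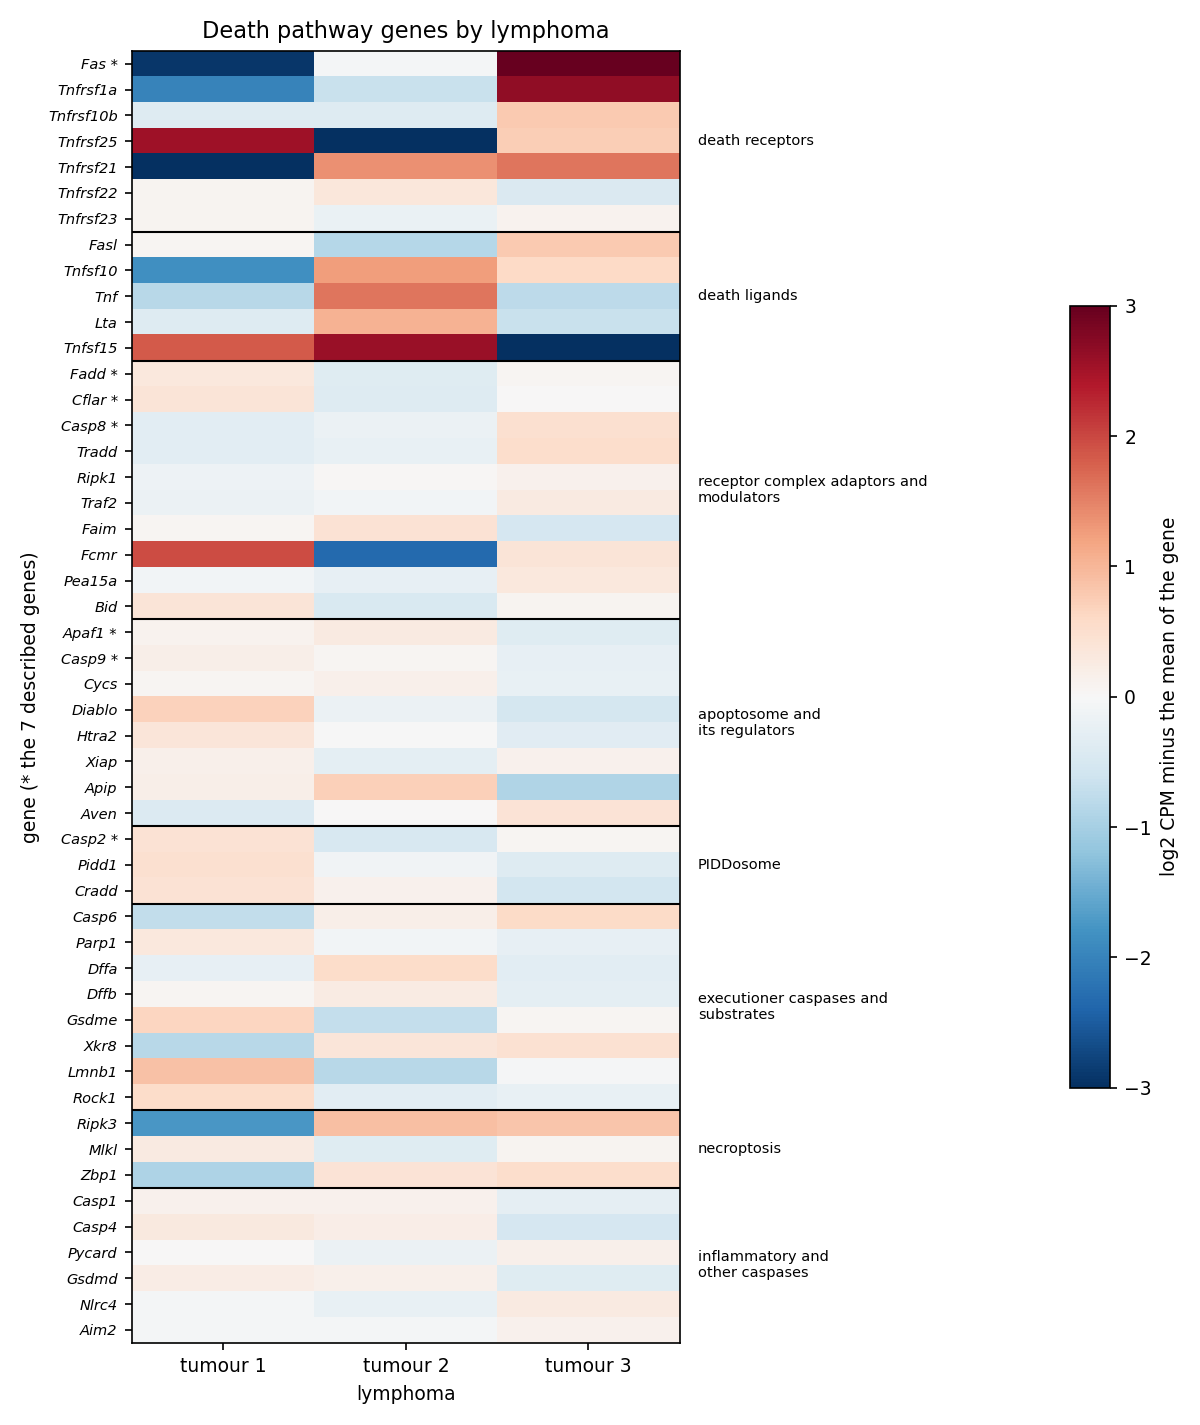
Log2 CPM (prior count of 2) minus the mean of each gene for listed death pathway genes with a mean of at least 1 CPM, by lymphoma, with the 7 genes starred and the colour scale ending at -3 and 3. The strongest colours are those of Fas, Tnfrsf1a, Tnfrsf25, Tnfrsf21, Tnfsf15 and Fcmr, and the other 6 of the 7 genes are pale.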

How the data were processed

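PolyA-enriched RNA of 3 sorted pBIC2 lymphoma libraries was sequenced single-end, per the labels. The files hold raw, whole-number counts for each gene as the authors deposited them, and FastQC, STAR 2.5.2b, featureCounts 1.6.0 and mm10 are named in the submitters' processing notes. Which annotation was counted, and with what strand setting, is not given in the sources used here. Positions and exon lengths come from GENCODE M21, to which 37536 of 37646 gene identifiers matched without their version, and promoters from RefSeq (GRCm38.p6), where all 7 genes matched.

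The labels give 1 group, numbered in accession order, so no contrast was fitted and no p-value computed. Counts were scaled by TMM (factors 0.969, 0.990 and 1.04; edgeR 4.0.16, R 4.3.3) after filterByExpr. DESeq2 1.42.0 size factors were an alternative. Ratio intervals are exact conditional binomial, from SciPy 1.17.1. Named were the 7 genes and, of each wider list, the 2 genes highest per kilobase and the 2 of widest range with a mean of at least 1 CPM, all genes of lists of 5 or fewer, genes with no count, and the 5 genes nearest to the most variable of the 7. Members and lists were chosen with earlier results of these data known. Some genes that the rule names, or that the lists hold, are not reported here. The range step, with its scaling, and the ratio intervals were tested on simulated counts that held counting error only. Other steps were not tested in this way. Without molecular identifiers, reads are not independent molecules, and intervals cover counting error only.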

Additional observations from a re-analysis of the deposited data

How the results depend on the processing

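No paired analysis was possible because the labels give 1 group and no numbers shared between groups. Of 99 alternative values, 93 stayed within 1 SD of the reported value (counts within 1.5 times). Many could not do otherwise, because with 3 libraries a mean without 1 of them always lies within 1 SD. The ratios also cannot change with the scaling of the libraries. The 93 is therefore not a measure of how stable the results are. With DESeq2 size factors, total counts, no filter, a prior count of 2, a limit of 3-fold, a mean of at least 1 CPM (chosen after seeing the data) and without each tumour, the count of genes with a 2-fold range was 1, and the gene was Fas each time. The background share of genes with such a range did change. It was 34.9% in the main setting and 17.0%, 22.1% and 19.5% without tumours 1, 2 and 3. DESeq2 size factors gave 34.8%, total counts 35.1%, the prior count 34.1%, no filter 67.2%, the 3-fold limit 15.2% and the 1 CPM cut 42.0%. The unchanged count of 1 is therefore not set against the same share each time. At a limit of 1.5-fold the count was 6, all but Casp9, against 64.3% of genes tested. With the longest transcript as length, the level per kilobase was 5.90 for Cflar, 16.2 for Apaf1, 12.2 for Casp9 and 19.3 for Casp2, and the ratio of Cflar to Casp8 was 0.246; the shorter lengths raise these levels by construction. The order per kilobase was the same under both other scalings; leaving out any tumour reordered Apaf1, Casp2 and Casp9 or moved Fas, with Casp8 first each time. The mean of Fas was 0.925 to 8.44 CPM without each tumour, and the ratio of Cflar to Casp8 was 0.105 to 0.166. Depth limits Fas in tumour 1, where 2 counts have an exact 95% interval of 0.0161 to 0.479 CPM.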

Other observations

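Genes of lytic death programs, which also use caspases, were expressed as well. Casp1, the caspase of the inflammasome, was at 134, 134 and 101 CPM in tumours 1, 2 and 3, Casp4, which senses lipopolysaccharide in the cytosol, at 163, 152 and 92.5 CPM, and Gsdmd, the pore protein both cleave, at 131, 126 and 88.1 CPM. Of 9 listed genes of this group 6 passed the filter, and none of the 6 had a 2-fold range, against 34.9% of all genes tested. Per kilobase, Casp1 (82.1 CPM per kb) was above Casp8 (23.0 CPM per kb).

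The necroptosis genes divided. Ripk3, the kinase that starts necroptosis when caspase-8 is blocked, was at 4.31, 27.9 and 26.5 CPM, and Zbp1, a nucleic acid sensor upstream of it, at 72.9, 187 and 199.7 CPM. Both were lowest in tumour 1, as were the summed T cell, macrophage (35.8, 403 and 179 CPM) and neutrophil (0.199, 17.04 and 42.9 CPM) markers, whose part in these levels was not tested. Ripk1 (47.9, 54.6 and 58.7 CPM) and Mlkl, the pore-forming effector (8.42, 5.33 and 7.33 CPM), varied less than 2-fold.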
